A study of Mus musculus with 36 samples.

Results

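The integrated stress response genes were read here as a group of mRNAs across a time course of Ikaros induction in mouse pre-B cells. A list of 10 genes was drawn up by symbol (Atf4, Atf5, Ddit3, Trib3, Asns, Chac1, Sesn2, Ddit4, Eif4ebp1 and Cebpb), and 9 of them were found in the table of 12762 genes; Cebpb was not analysed here. The cells were of the mouse line B3, which is held at the pre-BI stage. One population carried a retrovirus (MSCV) expressing Ikaros, tagged with HA and fused to ERt2, a modified estrogen receptor domain that lets 4-hydroxytamoxifen (4-OHT) send the protein to the nucleus, together with GFP. The control population carried the matching vector with ERt2 and GFP but no added Ikaros. Both populations had been sorted on GFP and expanded, so neither is stated to be 1 clone, and the endogenous Ikaros gene remained in both. Both received 0.5 µM 4-OHT, and cells were taken at 0, 2, 6, 12, 18 and 24 h, giving 12 groups of 3 libraries and 36 libraries in all. The labels list 4-OHT for the 0 h libraries as well, whereas the study's methods describe 0 h as cells without it, collected separately. The 3 replicates of a group were separate experiment batches of the same 2 populations, so p-values measure the spread between batches, and any other difference between the populations cannot be told apart from Ikaros at a single hour.

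In the integrated stress response, kinases that sense amino acid shortage, unfolded protein, double-stranded RNA or haem shortage phosphorylate the translation factor eIF2. Translation slows in general, while the mRNA of the transcription factor ATF4 is translated more, so the level of Atf4 mRNA and the amount of ATF4 protein need not move together. ATF4, alone or with partners such as CHOP (the product of Ddit3), then switches on genes for amino acid supply, redox control and feedback. Pre-B cells need a high rate of protein synthesis while they divide in response to interleukin 7, and Ikaros is known for ending that proliferative stage.

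The labels held up against the induced gene. Ikzf1, which encodes Ikaros, lay between 19.63 and 20.93 on the deposited log2 scale over the Ikaros libraries and between 13.95 and 14.85 over the control libraries, and was already higher by 5.19 (SE 0.18) at 0 h. All 12 of the pre-B marker genes sought were in the table, 8 of them above the median gene. Of markers of other cells, none of 5 for T cells or 3 for stroma were in the table, against 2 of 6 myeloid, 1 of 5 erythroid and 1 of 5 plasma cell genes; of these Lyz2 was lower (-2.94) and Itgam higher (4.24) in Ikaros cells at 24 h, both below the 8th percentile of gene levels. Their part in the results was not tested. The median gene of a library was at 11.70 to 11.73 in every library, so each value is relative to the other mRNAs of its library. Less RNA of a gene per cell and fewer cells that express it cannot be told apart in such bulk samples. The files hold no counts, so the depth behind each value is unknown here. The study's methods state a target read number, which was not used.

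The promoters of the 3 members that hold a match to the ATF4 site are shown first, since these are 3 of the 4 genes that changed most. ATF4 and its C/EBP partners bind composite elements with the core TGATGNAA. This core was sought on both strands in RefSeq windows (GRCm38.p6) of 300 bases, from 250 before to 50 after a transcription start. Of the 9 measured members 8 had a window. Eif4ebp1, the other of the 4 genes that changed most, had none and was not searched. The core was found for Chac1, Trib3 and Asns, against 3.97% of all 32851 windows. The match is in capitals in each.
Chac1 (chr2:119350992-119351291, plus strand): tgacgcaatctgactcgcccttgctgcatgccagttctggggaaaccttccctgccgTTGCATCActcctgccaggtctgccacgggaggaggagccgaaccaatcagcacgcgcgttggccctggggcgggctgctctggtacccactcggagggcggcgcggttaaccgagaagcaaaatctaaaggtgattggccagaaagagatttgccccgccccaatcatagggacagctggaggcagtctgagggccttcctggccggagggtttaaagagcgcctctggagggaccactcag
Trib3 (chr2:152344011-152344310, minus strand): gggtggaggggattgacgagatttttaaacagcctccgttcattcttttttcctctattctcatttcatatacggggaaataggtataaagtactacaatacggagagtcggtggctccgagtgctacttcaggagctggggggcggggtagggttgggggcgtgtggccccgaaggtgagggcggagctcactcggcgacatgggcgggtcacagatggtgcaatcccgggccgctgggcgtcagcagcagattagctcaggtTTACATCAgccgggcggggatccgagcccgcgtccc
Asns (chr6:7693160-7693459, minus strand): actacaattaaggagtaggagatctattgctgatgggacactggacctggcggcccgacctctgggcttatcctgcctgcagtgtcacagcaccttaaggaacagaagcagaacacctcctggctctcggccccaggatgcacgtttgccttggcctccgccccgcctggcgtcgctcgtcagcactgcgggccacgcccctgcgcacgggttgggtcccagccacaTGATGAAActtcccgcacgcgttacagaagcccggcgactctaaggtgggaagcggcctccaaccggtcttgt
The Chac1 match began 193 bases before the start. It reads TTGCATCA in the window shown, so the core itself lies on the strand opposite to the gene. In Asns the match TGATGAAA, with the core on the gene's strand, began 23 bases before the start. For Trib3 the match TTACATCA, again with the core on the opposite strand, lay after the start, from position 15. The E-box CACGTG was found in no member's window, against 7.15% of all windows, and TGGGAA, a core that Ikaros can bind, was found for Sesn2 and Asns, against 25.56%. These matches describe letters in the windows and are no measurement of binding. The members were listed as genes of the response that ATF4 drives, and genes are counted for them but windows for the shares. The shares are therefore no test of the members, and a tie between a match and a change in level was not tested.

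The question put to the time course was when, and in which direction, Ikaros cells came to differ from control cells treated alike. Late in the course, 4 members were strongly lower in Ikaros cells, namely Trib3, Chac1, Asns and Eif4ebp1, with log2 differences of -2.80 to -3.40 at 24 h. Atf4, Atf5 and Ddit3, the transcription factors of the group, were lower by less than 1 at that time, and Ddit4 was the only member called higher. A gene was called where the adjusted p of limma (Benjamini-Hochberg over all 12762 genes) was below 0.05. At 0 h 2 of 9 members were called (8.33% of all genes), both higher (4.61%), and at 2 h 1 was, also higher (19.1% of all genes, 9.18% higher). At 6 h 2 were called, both lower (37.3% of all genes, 19.2% lower). At 12 h 6 were called, 5 lower and 1 higher (45.8% of all genes, 22.8% lower and 23.0% higher). At 18 h the count was again 6, with 5 lower and 1 higher (58.2%, 29.2% lower and 29.0% higher). At 24 h 8 of 9 were called, 7 lower and 1 higher, where 62.9% of all genes were called, 31.9% lower and 31.0% higher. The median difference of the members went from 0.24 at 0 h to -0.45 after 12 h, -1.04 after 18 h and -0.77 after 24 h, while that of all genes stayed between -0.03 and 0.00. With only 9 members, a gap between their share of calls and that of all genes can rest on very few genes. Whether these shares differ was not tested, and they are not read as a course in time. Most calls of members were downward from 12 h on.

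**Figure D1:**
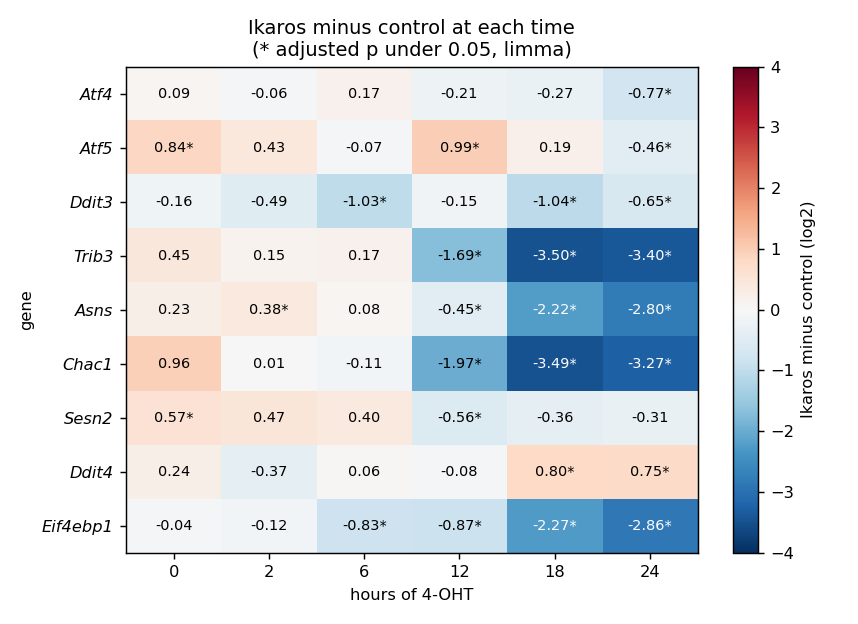
Difference between Ikaros and control cells (log2, colour and number) for each of the 9 genes at each hour of 4-OHT, with an asterisk where the adjusted p of limma was below 0.05. Trib3, Asns, Chac1 and Eif4ebp1 turn to -2.80 or below by 24 h, while Ddit4 is at 0.75.

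Trib3 (ENSMUSG00000032715, chr2:152337422-152344032, minus strand of mm10) encodes a pseudokinase that is induced by ATF4 and CHOP and dampens their activity. Its 3 control libraries read 10.35, 10.56 and 10.38 at 0 h and its 3 Ikaros libraries 10.98, 11.00 and 10.67. At 2 h the values were 10.07, 10.64 and 10.78 in control cells and 10.37, 10.87 and 10.71 in Ikaros cells. At 6 h they were 10.30, 10.41 and 10.87 against 10.47, 10.70 and 10.91. Up to that hour the lines overlapped, except at 0 h, where every Ikaros library was the higher but the difference was not called (0.45, adjusted p = 0.257 by limma). At 12 h the control libraries read 10.91, 11.10 and 10.72 and the Ikaros libraries 9.46, 9.18 and 9.02. At 18 h they read 11.21, 11.37 and 11.19 against 7.75, 8.09 and 7.43. At 24 h they read 11.17, 11.09 and 11.51 against 7.98, 8.29 and 7.31. From 12 h on the lines were apart, with every Ikaros library below every control library. The difference was -1.69 (SE 0.22, adjusted p = 4.41e-07) after 12 h, -3.50 (adjusted p = 3.38e-13) after 18 h and -3.40 (adjusted p = 3.53e-13) after 24 h. The last of these is a level 10.6 times lower.

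Chac1 (ENSMUSG00000027313, chr2:119351229-119354381, plus strand) encodes an enzyme that degrades glutathione and is a sensitive target of ATF4. At 0 h its control libraries read 11.67, 11.74 and 11.28 and its Ikaros libraries 12.62, 12.60 and 12.34. At 2 h they read 11.60, 11.79 and 11.07 against 11.62, 11.77 and 11.10, and at 6 h 12.38, 11.62 and 11.02 against 11.69, 11.34 and 11.64. Chac1 therefore began higher in Ikaros cells, with no overlap at 0 h, and overlapped control cells at 2 and 6 h. The 0 h difference of 0.96 (SE 0.40) had an adjusted p of 0.167 in limma and one of 0.0094 with the replicate block. At 12 h the values were 12.92, 13.18 and 11.84 in control cells and 11.19, 11.05 and 9.79 in Ikaros cells. At 18 h they were 13.24, 12.99 and 12.33 against 9.64, 9.64 and 8.79. At 24 h they were 13.35, 13.33 and 12.95 against 10.23, 10.53 and 9.04. The groups were apart at all 3 of these times, and the third replicate was the lowest in both lines. The difference was -1.97 after 12 h (SE 0.40, adjusted p = 0.000214), -3.49 after 18 h and -3.27 after 24 h (adjusted p = 6.83e-08), or 9.67 times lower at the end.

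Asns (ENSMUSG00000029752, chr6:7675169-7693254, minus strand) encodes asparagine synthetase, a classical gene of the amino acid response. Control libraries hardly varied: they read 15.30, 15.37 and 15.45 at 0 h, 15.24, 15.46 and 15.53 after 2 h, 15.57, 15.55 and 15.57 after 6 h. They went on at 15.41, 15.46 and 15.70 after 12 h, 15.40, 15.63 and 15.70 after 18 h, and 15.54, 15.56 and 15.73 after 24 h. No time in the control cells was called against 0 h, and the means spanned 0.24. Ikaros libraries read 15.60, 15.59 and 15.61 at 0 h, 15.65, 15.84 and 15.89 after 2 h, and 15.54, 15.66 and 15.73 after 6 h. They then read 14.94, 15.30 and 14.96 after 12 h, 13.34, 13.45 and 13.29 after 18 h, and 12.66, 13.04 and 12.73 after 24 h. The Ikaros libraries were above all control libraries of the same hour at 0 and 2 h and below all of them at 12, 18 and 24 h. The 2 h difference of 0.38 (SE 0.11, adjusted p = 0.0161) lost its call without any 1 of the 3 replicates (adjusted p = 0.127, 0.167 and 0.0595). The difference was -0.45 after 12 h (adjusted p = 0.00144, 0.0792 without replicate 3 and 0.0697 with only the groups compared), -2.22 after 18 h (adjusted p = 5.41e-15) and -2.80 after 24 h (SE 0.11, adjusted p = 3.52e-17), or 6.95 times lower.

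Eif4ebp1 (ENSMUSG00000031490, chr8:27260329-27276674, plus strand) encodes 4E-BP1, an ATF4 target that binds the cap-binding factor eIF4E and restrains translation. Its control libraries read 16.75, 16.86 and 16.75 at 0 h, 16.62, 16.71 and 16.53 after 2 h, 17.09, 16.72 and 16.48 after 6 h. Later they read 16.74, 16.83 and 16.77 after 12 h, 16.69, 16.69 and 17.05 after 18 h, and 17.08, 16.88 and 17.53 after 24 h. No control time was called against 0 h. Ikaros libraries read 16.98, 16.53 and 16.72 at 0 h, 16.22, 16.57 and 16.70 after 2 h, and 15.83, 16.16 and 15.80 after 6 h. Their values were 15.81, 16.03 and 15.90 after 12 h, 14.57, 14.73 and 14.31 after 18 h, and 14.36, 14.48 and 14.06 after 24 h. Of the 4 strongly lower members it was the first to lie below control cells without overlap, from 6 h on, with a step at 18 h. Against its own 0 h, Chac1 was lower sooner in Ikaros cells, at -1.03 after 2 h, though not called (adjusted p = 0.0701 by limma). The difference of Eif4ebp1 between the lines was -0.83 after 6 h (SE 0.17, adjusted p = 0.000339, and 0.0628 without replicate 1), -0.87 after 12 h, -2.27 after 18 h and -2.86 after 24 h (adjusted p = 6.34e-14), or 7.28 times lower.

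**Figure D2:**
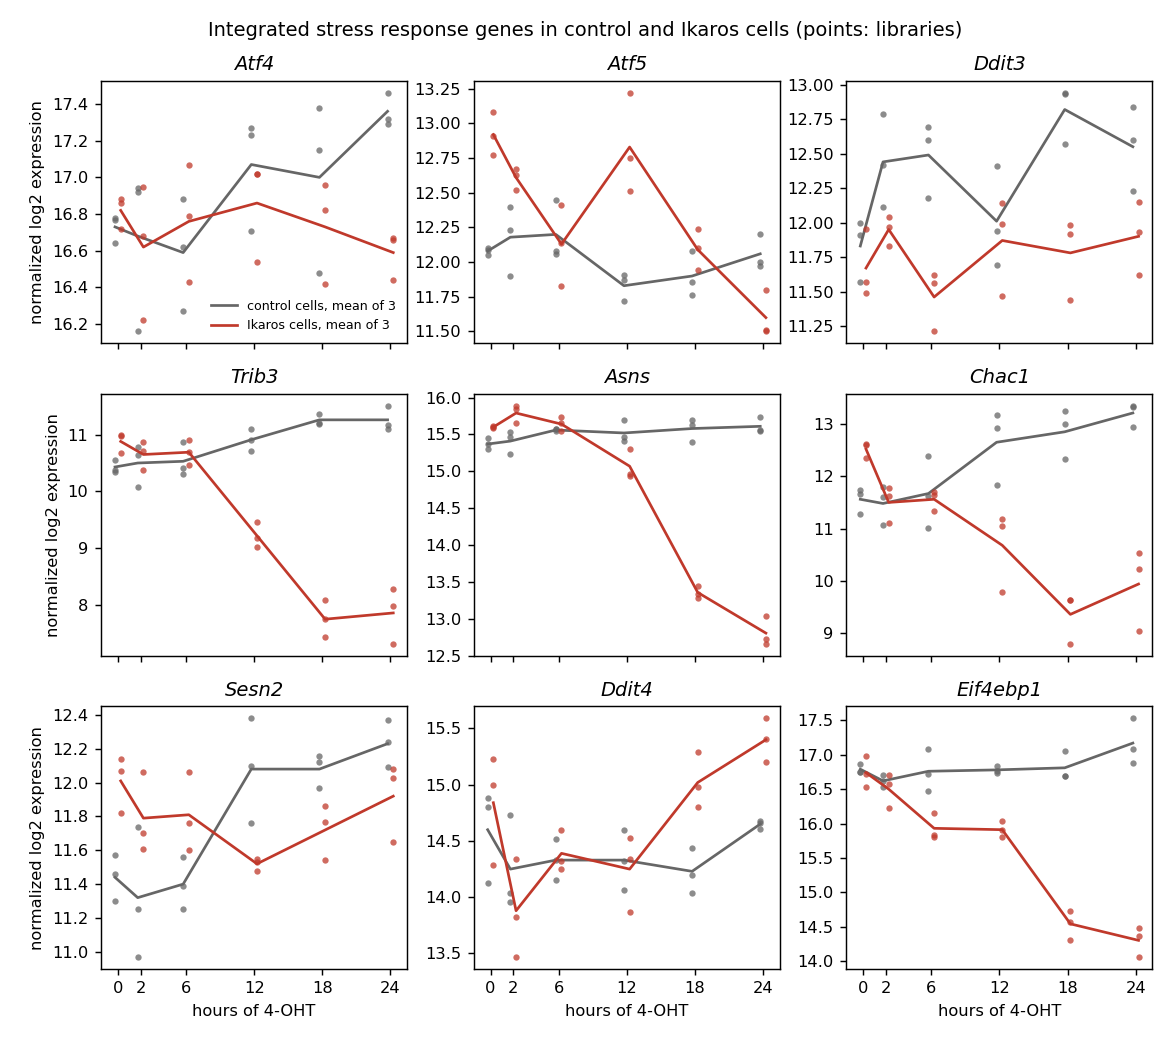
Normalized log2 expression (vertical axes, each with its own range) of the 9 genes against hours of 4-OHT in control (grey) and Ikaros (red) cells, with a point for each library and lines through the means of 3. Eif4ebp1 separates from 6 h on and Trib3, Asns and Chac1 from 12 h on, while the Atf4 points of both lines overlap until 24 h.

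Atf4 (ENSMUSG00000042406, chr15:80255184-80257541, plus strand), the central transcription factor, did not show a fall of that kind. Its control libraries read 16.78, 16.64 and 16.77 at 0 h and 16.94, 16.92 and 16.16 at 2 h, and its Ikaros libraries 16.86, 16.72 and 16.88, then 16.95, 16.68 and 16.22. At 6 and 12 h the control values were 16.88, 16.62, 16.27, 17.27, 17.23 and 16.71, and those of Ikaros cells were 17.07, 16.79, 16.43, 17.02, 17.02 and 16.54. At 18 and 24 h the control values were 17.38, 17.15, 16.48, 17.46, 17.29 and 17.32, against 16.96, 16.82, 16.42, 16.66, 16.67 and 16.44. As groups the lines overlapped at every hour before 24 h, and the third replicate was the lowest in both lines from 2 to 18 h. At 24 h every Ikaros library was below every control library, with means of 16.59 ± 0.13 and 17.36 ± 0.09 (SD, n = 3). That difference was -0.77 (SE 0.24, adjusted p = 0.00599, and 0.0731 without replicate 2). Against their own 0 h the 24 h values differed by 0.63 in control cells (adjusted p = 0.285) and by -0.23 in Ikaros cells (adjusted p = 0.405), neither of them called. With the replicate block that had separate levels at 0 h, Atf4 was also called at 18 h (-0.27, adjusted p = 0.0374). Within the batches that share a number, the difference between the lines was 0.08, 0.08 and 0.11 at 0 h and 0.01, -0.24 and 0.06 at 2 h. It was 0.19, 0.17 and 0.16 at 6 h, -0.25, -0.20 and -0.17 at 12 h, -0.42, -0.33 and -0.06 at 18 h, and -0.80, -0.63 and -0.88 at 24 h. The sign was thus mixed at 2 h and the same in every batch at each other hour. The difference was not called before 24 h in the fit of all libraries with no block. Without replicate 3, and again with no block, it was called at 18 h (-0.38, adjusted p = 0.0193).

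Ddit3 (ENSMUSG00000025408, chr10:127290774-127296288, plus strand) encodes CHOP, which promotes death of cells under lasting stress. It was called lower in Ikaros cells at 6, 18 and 24 h. At 6 h the control libraries read 12.60, 12.18 and 12.69 and the Ikaros libraries 11.21, 11.62 and 11.56. At 18 h they read 12.94, 12.93 and 12.57 against 11.98, 11.92 and 11.44, and at 24 h 12.84, 12.60 and 12.23 against 11.93, 12.15 and 11.62. The lines were apart at each of these times, by -1.03 (SE 0.22, adjusted p = 0.000632), -1.04 (adjusted p = 0.000252) and -0.65 (adjusted p = 0.0128, and 0.129 without replicate 1). At 12 h, where control cells read 11.69, 12.41 and 11.94 and Ikaros cells 12.14, 11.99 and 11.47, they overlapped. Within Ikaros cells no time was called against 0 h, and the 24 h value was 0.23 higher (adjusted p = 0.37). Ddit3 lies across Mars and Gm4189 on the opposite strand, both of them in the table, and the strand setting of the counting is not given in the sources used here, so reads may have been shared. Another protein-coding entry named Ddit3 overlaps it on the same strand and is not in the table, and its effect on the counts is unknown. Mars, a tRNA synthetase, was itself lower at 24 h (log2 difference -1.52, SE 0.08).

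Atf5 (ENSMUSG00000038539, chr7:44812256-44816658, minus strand), a relative of ATF4 whose mRNA is translated by the same mechanism, took an uneven course. Its Ikaros libraries read 12.91, 12.77 and 13.08 at 0 h, 12.41, 12.14 and 11.83 after 6 h, 12.51, 12.75 and 13.22 after 12 h, and 11.80, 11.50 and 11.51 after 24 h. Control libraries at these hours read 12.05, 12.10 and 12.09, then 12.45, 12.08 and 12.06, then 11.91, 11.87 and 11.72, and last 12.00, 11.97 and 12.20. It was higher in Ikaros cells without overlap at 0 h (0.84, SE 0.16, adjusted p = 0.000688) and after 12 h (0.99, adjusted p = 1.23e-05), and lower after 24 h (-0.46, adjusted p = 0.0158). At 2 h it was also higher without overlap (12.52, 12.67 and 12.63 against 11.90, 12.40 and 12.23) but not called (0.43, adjusted p = 0.0601), and at 18 h the lines overlapped (0.19, adjusted p = 0.306). The 0 h call was lost without replicate 2 (adjusted p = 0.0646), and the 24 h call without replicate 2 or 3 (adjusted p = 0.143 and 0.108). The gene overlaps Nup62 and Il4i1 on the opposite strand, the latter in the table, so the same uncertainty on shared reads holds.

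Ddit4 (ENSMUSG00000020108, chr10:59949669-59951834, minus strand) encodes REDD1, an inhibitor of the growth kinase complex mTORC1 that also answers to hypoxia and glucocorticoids, and it went the other way. At 18 h its control libraries read 14.44, 14.20 and 14.04 and its Ikaros libraries 14.98, 14.80 and 15.29. At 24 h they read 14.61, 14.68 and 14.66 against 15.59, 15.20 and 15.41. The lines were apart at both times, by 0.80 (SE 0.25, adjusted p = 0.00778) and 0.75 (adjusted p = 0.0111, and 0.147 without replicate 1). At 0 h the values were spread in both lines, at 14.88, 14.80 and 14.13 in control cells and 15.23, 15.00 and 14.29 in Ikaros cells. In Ikaros cells Ddit4 fell from these to 13.82, 14.34 and 13.47 at 2 h (-0.96, SE 0.25, adjusted p = 0.00791, and 0.184 without replicate 1), and was 0.56 above its 0 h mean at 24 h (adjusted p = 0.0542). With the replicate block that last difference was 0.63 (adjusted p = 0.0384).

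Sesn2 (ENSMUSG00000028893, chr4:132492032-132510501, minus strand) encodes a leucine-sensing sestrin that also restrains mTORC1. Control libraries read 11.46, 11.57 and 11.30 at 0 h, 12.10, 12.38 and 11.76 after 12 h, and 12.24, 12.37 and 12.09 after 24 h. Ikaros libraries read 12.07, 12.14 and 11.82 at 0 h, 11.53, 11.55 and 11.48 after 12 h, and 12.08, 12.03 and 11.65 after 24 h. It began higher in Ikaros cells and was then lower, without overlap at any of these 3 hours. The difference was 0.57 at 0 h (SE 0.17, adjusted p = 0.0384), -0.56 after 12 h (adjusted p = 0.00909) and -0.31 after 24 h (adjusted p = 0.119). Leaving out any 1 replicate ended the 0 h call (adjusted p = 0.104 to 0.32), and leaving out replicate 1 or 2 ended that at 12 h (adjusted p = 0.079 and 0.0955), as did fitting only the groups compared (adjusted p = 0.054). With the replicate block Sesn2 was also called at 2, 6 and 18 h (adjusted p = 0.0292, 0.0357 and 0.0456), where the differences were 0.47, 0.40 and -0.36. Gm12981, which is in the table, overlaps Sesn2 on the same strand. Among the sestrin paralogues, Sesn3 was higher in Ikaros cells by 3.19 (SE 0.38) after 2 h and 5.05 after 24 h (6.30 ± 0.60 against 11.35 ± 0.52, SD, n = 3), and Sesn1 was higher by 2.20 after 24 h (SE 0.15).

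To see which line had moved, each was compared with its own 0 h, bearing in mind that the 0 h cells were collected separately, so that time and collection cannot be told apart within a line. In Ikaros cells at 24 h 5 of 9 members were called, all lower (60.6% of all genes were called, 29.6% lower). The log2 changes were -3.03 for Trib3, -2.79 for Asns, -2.59 for Chac1, -2.44 for Eif4ebp1 and -1.32 for Atf5, with adjusted p from 4.01e-17 to 3.29e-06 in limma. The number called in Ikaros cells was 1 after 2 h, 2 after 6 h, 5 after 12 h and 5 after 18 h, where 19.2%, 32.8%, 46.1% and 54.6% of all genes were called. All of these calls were downward, as were those of 9.61%, 15.6%, 22.2% and 26.5% of all genes. At 2 h the replicate block called 2, since Chac1 joined Ddit4 (blocked difference -1.08, adjusted p = 0.00388, against -1.03 and 0.0701 without the block). At 6 h it called Chac1 too (-1.02, adjusted p = 0.00337, against -0.97 and 0.0651).

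In control cells few genes were called at most times, the largest share being 5.1% at 6 h. The members' median difference from 0 h was -0.06 at 2 h and 0.63 at 24 h. The number of members called by limma was 0 at 2, 6 and 12 h (0.047%, 5.1% and 0.0549% of all genes), with 1, 1 and 3 members at an unadjusted p below 0.05. The share of all genes at that unadjusted threshold was not computed. Member counts at it, here and at 24 h, therefore have nothing to be set against. The fit with an intensity trend and robust variances called 0 at the same 3 times, and the replicate block called 0, 1 and 0, the 1 being Ddit3 at 6 h (blocked difference 0.72, adjusted p = 0.0351, against 0.67 and 0.0672 without the block). At 18 h Ddit3 rose by 0.99 (adjusted p = 0.0422) and was the only member called (0.478%, with 0.172% higher). At 24 h Sesn2 rose by 0.79 (SE 0.17, adjusted p = 0.0379), again the only one (0.47%, with 0.266% higher), and 7 members had an unadjusted p below 0.05. Both of these calls were lost on leaving out any 1 replicate (adjusted p = 0.0963 to 0.622). Chac1 was 1.65 higher at 24 h without being called (adjusted p = 0.0573), and with the replicate block it was called at 18 and 24 h (1.23 and 1.59, adjusted p = 0.0262 and 0.0043). Trib3 was 0.83 higher (adjusted p = 0.0882) and Ddit3 0.73 higher (adjusted p = 0.168).

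**Figure D3:**
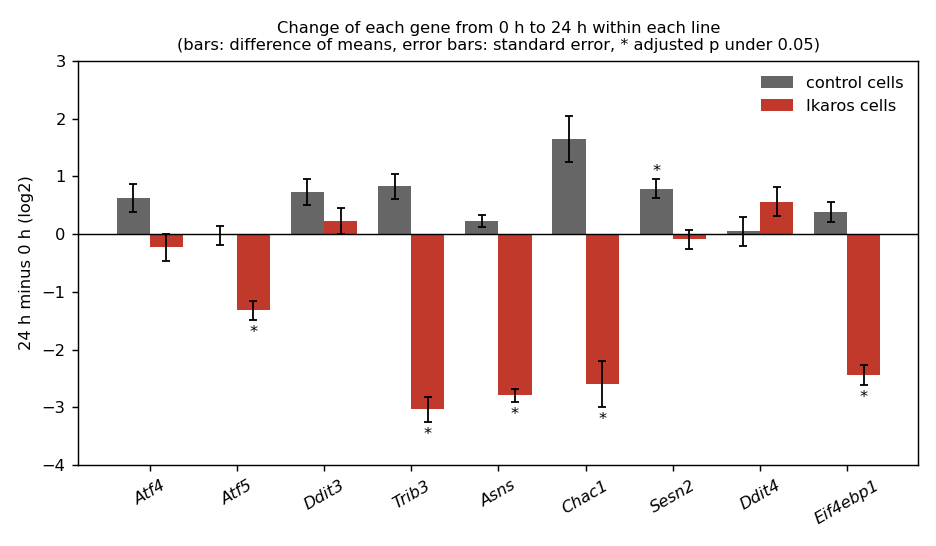
Change from 0 h to 24 h (log2) of each gene within control (grey) and Ikaros (red) cells, as the difference of means of 3 libraries with its standard error, and an asterisk where the adjusted p of limma was below 0.05. In Ikaros cells Trib3, Asns, Chac1, Eif4ebp1 and Atf5 lie between -3.03 and -1.32, while Chac1 in control cells is at 1.65 and was not called.

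The change of the Ikaros against control difference from its 0 h value tests whether the difference between the lines shifted, which can bring lines together as well as apart. Atf5, for example, had a difference of 0.84 at 0 h and of -0.07 at 6 h. No member was called at 2 h by limma (3.1% of all genes), none had an unadjusted p below 0.05, and neither the trend fit nor the replicate block called any. At 6 h 2 members were called, Atf5 and Eif4ebp1 (15.9%, with 8.14% lower), and 4 with the replicate block, which added Ddit3 (adjusted p = 0.0476) and Chac1 (adjusted p = 0.0274). The block with separate levels at 0 h called 3, Chac1 (adjusted p = 0.0221) but not Ddit3. The count was 5 after 12 h, 7 after 18 h and 7 after 24 h (29.7%, 43.0% and 48.4%), all of them downward, where 14.3%, 21.0% and 24.2% of all genes were. The changes at 24 h ranged from -0.86 for Atf4 (adjusted p = 0.0342, and 0.131 or 0.193 without replicate 1 or 2) to -4.24 for Chac1 (SE 0.57, adjusted p = 6.41e-07). Ddit4 (0.51, adjusted p = 0.244) and Ddit3 (-0.49, adjusted p = 0.203) were the members not called. Over all 5 times together, the limma F test called 8 of 9 (59.8% of all genes), the exception being Atf4 (adjusted p = 0.142). With the replicate block Atf4 was called too (adjusted p = 0.00322), as it was without replicate 3 (adjusted p = 0.00624).

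Other genes of the pathway were read by lists, which give values for Ikaros against control cells. Upstream of ATF4, 17 genes listed around eIF2 were in the table. They were genes for eIF2, its kinases, its exchange factor eIF2B and its phosphatases, and also Eif2a, Gcn1l1 and Impact, which are none of these. At 24 h 5 of the 17 were higher and 10 lower in Ikaros cells (median -0.39, against -0.01 for all genes, of which 31.0% were called higher and 31.9% lower). Eif2a was among the higher (0.40) and Gcn1l1 among the lower (-0.69). The kinases PERK, HRI and GCN2, encoded by Eif2ak3, Eif2ak1 and Eif2ak4, were higher by 1.11, 0.92 and 0.59. The other eIF2 kinase gene, Eif2ak2, which encodes the double-stranded RNA sensor PKR and is named after its value was seen, was lower (-1.35). Eif2b3 was lower, with a difference of -2.62 (SE 0.17), as were Eif2s2 (-1.80) and Eif2s1 (-1.69), subunits of eIF2. Among 11 transcription factors related to ATF4, 4 were higher and 4 lower (median 0.06). Atf3, a stress factor induced by ATF4, had the largest difference of the list, at -4.47 (SE 0.58), and Nupr1 and Jdp2 were at -2.39 and -2.14. Nfe2l2, the regulator of antioxidant genes, was at 1.58. The call of Nupr1 was lost without replicate 2 (adjusted p = 0.0603) and that of Atf7, at 1.24, without replicate 1 (adjusted p = 0.0761).

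Downstream, amino acid supply showed the most uniform lists. Of 20 targets of ATF4 in amino acid synthesis and transport, 2 were called higher and 0 lower at 0 h (8.33% of all genes called, 4.61% higher). At 6 h 3 were higher and 4 lower (median 0.02), where 37.3% of all genes were called, 19.2% lower. At 12 h 14 were lower and 0 higher, where 22.8% of all genes were lower. At 18 h 19 were lower and 1 higher (29.2% of all genes lower), and at 24 h 19 were lower and 0 higher (31.9% lower), with a median of -1.86. The glycine transporter gene Slc6a9 was at -4.07 (SE 0.22), the cystine transporter gene Slc7a11 at -3.24 and the neutral amino acid transporter gene Slc1a4 at -2.92. The exception at 24 h was Slc38a2, named after its value was seen, at 0.41 and not called. All 13 genes of the tRNA synthetase list, enzymes that load amino acids onto tRNA plus the tRNA exporter Xpot, were lower at 18 and 24 h, and 11 were at 12 h, while none was called at 0 h. Their median was -1.18 at 24 h, with Iars at -1.85 (SE 0.11), Cars at -1.58 and Mars at -1.52. At 2 h single genes of these lists were higher in Ikaros cells, among them Slc7a3 (1.45, adjusted p = 0.0299) and Sars (0.38, adjusted p = 0.00358). Both calls were lost without replicate 1 (adjusted p = 0.296 and 0.151) or replicate 2 (adjusted p = 0.139 and 0.0858). That of Slc7a3 was also lost with quantile normalization (adjusted p = 0.0506), and that of Sars with only the groups compared (adjusted p = 0.163).

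The remaining lists were mixed. Of 15 ATF4 or CHOP targets in autophagy, survival and secretion, 7 were higher and 5 lower at 24 h (median 0.12), beside 31.0% and 31.9% of all genes, and these shares apply to the other 2 lists as well. Gadd45a, a gene of growth arrest, was at 2.51 (SE 0.24), Map1lc3b, an autophagosome component, at 1.56, and Bcl2l11, which encodes the death-promoting protein BIM, at 1.55. Vegfa, a secreted growth factor gene, was at -3.15 (SE 0.29). At 2 h 6 of the 15 had been called higher and 2 lower, where 19.1% of all genes were called, 9.18% higher. Ndrg1 was then at 1.57 (SE 0.18), Stc2 at 1.17 and Ero1l at 0.85, with Bbc3 at -0.91 and Nars2 at -0.73. The calls of Stc2 and Ero1l were lost without replicate 1 or 2 (adjusted p = 0.162 to 0.271). That of Nars2 was lost without replicate 1 (adjusted p = 0.0728). At 24 h Ndrg1 and Ero1l were lower (-1.41 and -1.70). Of 20 genes of the XBP1 and ATF6 branches of the unfolded protein response, 6 were higher and 9 lower (median -0.35). Xbp1 and the sensor gene Ern1 were at 1.60 and 1.53, while the chaperone genes Hyou1 and Sdf2l1 were at -1.67 and -1.41. At 2 h Xbp1 was called higher (0.92, SE 0.12) and Sdf2l1 lower (-0.66). The 2 h call of Sdf2l1 was lost without replicate 1 or 2 (adjusted p = 0.15 and 0.119). Of 10 genes listed as paralogues of the members, 4 were higher and 2 lower at 24 h (median 0.41). That list was drawn up by symbol without a check of kinship, and it includes Cebpd, Cebpg and Cebpz although Cebpb was not analysed. The lists overlap in part, Atf3 and Cebpd being in 2 of them.

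**Figure D4:**
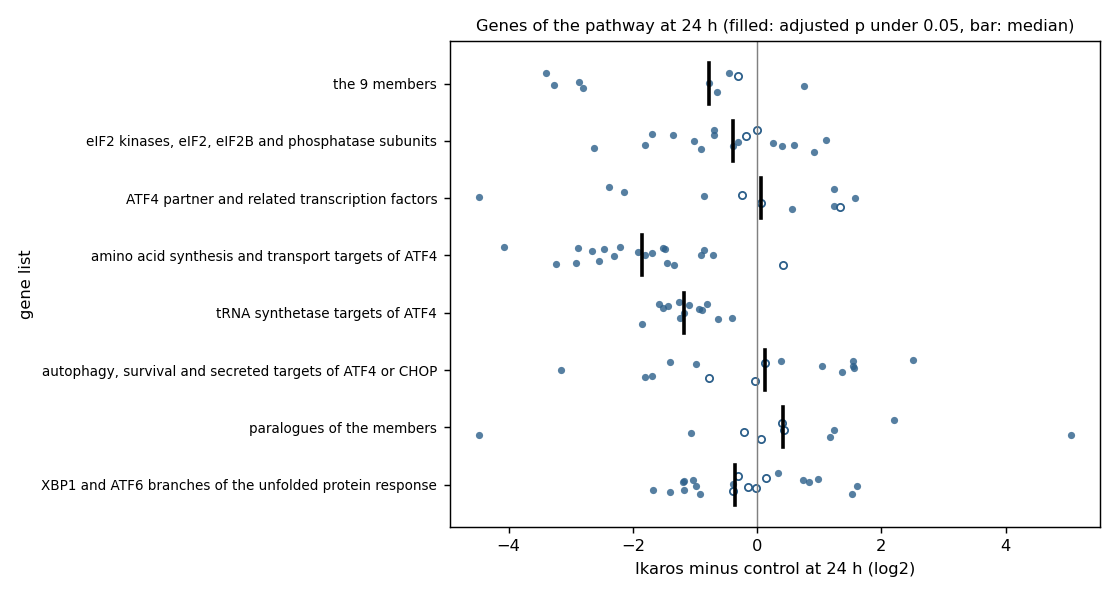
Difference between Ikaros and control cells at 24 h (log2, horizontal axis) for the 9 members and for each gene of the 7 pathway lists, filled where the adjusted p of limma was below 0.05, with a bar at the median of each list (vertical scatter has no meaning). The tRNA synthetase list lies to the left of 0 (median -1.18), as does the amino acid list (median -1.86) apart from Slc38a2 at 0.41, and the other lists and the members lie on both sides.

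The courses of the members were compared by Pearson's r over the 12 group means, as a description, since these means share libraries and batches. Trib3 was like Eif4ebp1 (r = 0.95), Asns (0.94) and Chac1 (0.94), and Asns like Eif4ebp1 (0.93). Atf4 was less like them, with r = 0.33 for Asns, 0.46 for Trib3 and 0.66 for Chac1, and Ddit4 ran against Asns (-0.80). Over all genes, the courses nearest to Trib3 were those of Slc1a4 and Yars (0.984 each) and Glipr2 (0.982). Nearest to Asns were Aimp2 (0.995), C2 (0.990) and Polr3g (0.989), and nearest to Eif4ebp1 Ncln (0.992), Alg3 and Agpat5 (0.991 each). For Chac1 they were Tpst2 (0.947), Atf3 (0.944) and Ppp1r12b (0.943), and for Ddit4 Gm15980 (0.949), Frs2 (0.947) and Vgll4 (0.945). The closest courses to Atf4 reached 0.826 (Ascc3), to Sesn2 0.851 (Inpp5b), to Atf5 0.898 (Cd81) and to Ddit3 0.923 (Dact1).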

How the data were processed

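Strand-specific mRNA libraries were sequenced for 36 samples. The authors trimmed reads, aligned them to mm10 with TopHat2 keeping unique best hits, counted them per gene with HTSeq, normalized for GC content and gene length with cqn, and adjusted for library preparation with ComBat. The deposited values are log2 with a constant that sets the lowest value to 1. Such adjustment can lower the spread between replicates, so p-values may be too small. No counts were used, so no counting interval can be given.

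Here limma (3.58.1, R 4.3.3) was fitted to all 12762 genes with 12 group means and no block, and p-values were adjusted by Benjamini-Hochberg, with calls below 0.05. It was tested on simulated data. Members were taken by symbol, and other genes named were, per list, up to 3 called genes with the largest difference in each direction at 2 and 24 h whose libraries did not overlap, and the 3 courses nearest to each member. Members, lists and tests were chosen with earlier results of these data known. Control and Ikaros cultures share batch numbers in the labels, which pairs them: over 18 pairs the correlation of deviations from the group means was -0.062 to 0.507 (median 0.128, 12 over 0.1). Batches at 0 h differ in part from the later ones, so a second blocked fit gave 0 h its own levels. Alternatives were both blocked fits, a filter on low values (9571 genes kept), quantile normalization, trend and robust variances, only the groups compared, and leaving out each replicate. Positions are from GENCODE M21, which held 98.7% of the table's gene IDs.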

Additional observations from a re-analysis of the deposited data

Results flagged for a closer look

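The change of the Ikaros against control difference since 0 h passed the limma test for the following members, which means that the course differed between the lines. For Chac1 it was -2.93 after 12 h, -4.45 after 18 h and -4.24 after 24 h. Trib3 showed -2.15, -3.96 and -3.85 at these hours. Asns showed -0.68, -2.44 and -3.02. Eif4ebp1 was the member called at the most times, at -0.79 (6 h), -0.82 (12 h), -2.23 (18 h) and -2.82 (24 h). Sesn2 was at -1.13, -0.92 and -0.88 at 12, 18 and 24 h. Its sign in the plain comparison turned from higher to lower between 6 and 12 h.

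For Atf5 the change was -0.91 after 6 h, -0.65 after 18 h and -1.30 after 24 h, with no call after 12 h in between (0.15). Without any 1 of the replicates the 18 h call of Atf5 was lost (adjusted p = 0.0536 to 0.11). The 6 h call of Atf5 was lost without replicate 2 or 3 (adjusted p = 0.0963 and 0.0561). For Eif4ebp1 the calls at 6 and 12 h were lost without replicate 1 (adjusted p = 0.478 and 0.163) or replicate 2 (adjusted p = 0.0712 and 0.0538). Ddit3 was at -0.88 at 18 h, which was lost without replicate 2 or 3 (adjusted p = 0.19 and 0.0687). Atf4 was at -0.86 at 24 h, which was lost without replicate 1 or 2 (adjusted p = 0.131 and 0.193).

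In the F test over all 5 times, the adjusted p was 2.27e-15 for Asns, 2.97e-12 for Trib3, 1.29e-10 for Eif4ebp1, 1.64e-07 for Chac1, 2.73e-05 for Atf5, 0.000315 for Sesn2, 0.0284 for Ddit4 and 0.0381 for Ddit3. That of Ddit3 was lost without any 1 replicate (adjusted p = 0.0558 to 0.257) and that of Ddit4 without replicate 1 or 2 (adjusted p = 0.251 and 0.157).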

How the results depend on the processing

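Of 1576 values recomputed for single genes (members and the other genes named), 1455 kept their direction and their side of the threshold, 80 lost a call, 40 gained one and 1 changed sign. That 1 was Eif4ebp1 in Ikaros cells at 2 h, not called (-0.24) and between -0.39 and 0.01 on leaving out a replicate. Another 61 differences of at most 0.2 in size, called nowhere, were not followed. The replicate block changed the number of members called from 1 to 2 after 2 h between the lines (2 also with separate levels at 0 h), from 2 to 4 in the change after 6 h, from 1 to 2 in Ikaros cells after 2 h, from 0 to 1 in control cells after 6 h, and from 1 to 2 in control cells at 18 and 24 h. Other calls it changed in the report stand beside their results. With only the groups compared in the fit, the number was 4 in place of 6 at 12 h between the lines, and 0 after 2 h between the lines, 1 in the change after 6 h, and 0 in control cells at 18 and after 24 h. Leaving out a replicate gave 0 to 2 members between the lines at 0 h, 0 after 2 h, 1 to 2 after 6 h and 6 to 7 after 24 h. In the change it gave 0 to 2 at 6 h. In Ikaros cells it gave 0 to 2 at 2 h and 2 to 4 at 6 h, and in control cells 0 to 1 at 12, 18 and 24 h. The cause of these shifts was not tested, beyond the fewer libraries in a fit. Depth was unknown, so low values such as those of Nupr1 and Sesn3 have no counting error attached.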
